A study of Mus musculus with 24 samples.

Results

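The genes described here are Hspa12a, a distant member of the HSP70 family, and 9 heat shock genes named beside it: Hspa1a, Hspa1b, Hspa8, Hsph1, Hsp90aa1, Hsp90ab1, Dnajb1, Hspb1 and Hspd1. They were matched by gene symbol to the Ensembl identifiers of the count table, which holds 12615 genes. Of the 10 genes, 8 had a row and all 8 passed the filter on low counts, among 12485 genes tested. Hspa1a and Hspa1b, the stress-inducible HSP70 pair, are not analysed here. Hspa12a was selected on its readout in these data, lower in the cold in Cre- mice and higher under the BATdKO label at 8°C, so its values are given as a description without a test. The other genes were named for their family, and Hspd1 encodes the mitochondrial chaperone HSP60, so that the set is not wholly cytosolic.

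Heat shock proteins are chaperones that bind unfolded proteins and use ATP to help them fold or to pass them on for degradation. HSP70 proteins work with HSP40 (DNAJ) partners, which bring substrates, and with exchange factors that release the nucleotide, while HSP90 takes over late folding steps of kinases and steroid receptors. Small heat shock proteins hold unfolded proteins without ATP, and the stress-inducible members are switched on by the transcription factor HSF1 through heat shock elements. HSPA12A carries an atypical HSP70 ATPase domain. Brown adipose tissue (BAT) produces heat through UCP1, the mitochondrial uncoupling protein.

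BAT RNA was measured in 24 mice, with 6 mice for each combination of genotype and temperature. All mice carried floxed alleles of Tbl1xr1 (TBLR1) and Tbl1x (TBL1), 2 corepressor subunits. BATdKO mice also carried Ucp1CreERT2, a tamoxifen-inducible Cre driven by the Ucp1 promoter, which is active in thermogenic adipocytes, and Cre- controls lacked it. The study proposes that early Ucp1 expression could also allow deletion in progenitors. Mice were raised at 22°C and then kept for 4 days at 30°C, or brought down through 1 day each at 18, 16 and 12°C to 6 days at 8°C. Housing began 3 weeks after the last tamoxifen dose. The labels describe females injected at an age of 5 years. The study's text instead gives an age in weeks and, for the sequenced mice, a shorter time at 8°C. The legend on these data gives males. That legend also gives fewer mice per group, and the study's methods state that outliers were removed without naming them. All 24 libraries were used here. The library names of the 30°C and of the 8°C mice form separate runs of numbers, each holding both genotypes. Temperature thus cannot be told apart from library order, and whether the runs were processed apart is not given. Nothing pairs mice between groups, and mice are called m1 to m6 within a group.

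The total count per library ranged from 699703 (Cre- 30°C mouse m4) to 11527643, and values are given as CPM, counts scaled to the TMM-normalized library size. The tag lies at the 3′ end, so CPM does not grow with transcript length. Tbl1xr1 and Tbl1x were both higher under the BATdKO label at 8°C (log2 fold change 0.93 with adjusted p = 0.00348, and 0.39 with adjusted p = 0.0633, edgeR). Where the tag lies relative to the deleted exons was not examined, so these levels do not check the deletion, and groups are named by their label. At 30°C the library labelled Cre- m6 had 38.6 CPM of Tbl1xr1, above the other Cre- libraries at 30°C, and the library labelled BATdKO m6 had 17.0 CPM, the lowest of its group. Tbl1x was at 53.5 and 39.7 CPM and Ucp1 at 548 and 84.7 CPM in these 2 libraries. Their levels of the targeted genes thus lay with the other label, and whether the libraries were exchanged was not tested, so Hspa12a and the calls at 30°C are also given without them. Leaving out both raised the number of genes past the threshold between genotypes at 30°C from 0 to 500 of 12500. The 2 libraries were picked after the data were seen, for levels that lay with the other label. Such a choice can itself raise the number of calls, so the rise cannot decide whether they were exchanged. Ucp1 averaged 177 and 290.0 CPM at 30°C and 1539 and 1685 CPM at 8°C in Cre- and BATdKO mice. The summed level of 4 hepatocyte genes, led by albumin, was 19510 to 28730 CPM in every library and exceeded Ucp1. The summed level of 13 skeletal muscle genes ran from 8.02 to 9106 CPM, highest in the Cre- 30°C mice m3 (9106) and m1 (3935). In bulk tissue, fewer cells of a type and less RNA per cell cannot be told apart.

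The promoter of Hspa12a and the stretches that hold heat shock element letters in 3 other members are shown to let the members be compared at the sequence level. The heat shock element was searched as 2 paired units, GAANNTTC or TTCNNGAA, each its own reverse complement, so that either strand gives the same matches. The 2 forms can overlap, and the windows ran from 250 bases before to 50 bases after each RefSeq start (GRCm38). Windows were found for 5 of the 8 measured members. Of these, Hspb1, Hspd1 and Hsph1 had at least 1 match, and neither of the 2 windows of Hspa12a nor those of Dnajb1 had any. Among all 32851 windows, 15.1% held either form. Capitals mark the matched letters, and the Hspa12a stretch has none.
Hspa12a, chr19:58943673-58943922, minus strand, the 250 bases before the outer start: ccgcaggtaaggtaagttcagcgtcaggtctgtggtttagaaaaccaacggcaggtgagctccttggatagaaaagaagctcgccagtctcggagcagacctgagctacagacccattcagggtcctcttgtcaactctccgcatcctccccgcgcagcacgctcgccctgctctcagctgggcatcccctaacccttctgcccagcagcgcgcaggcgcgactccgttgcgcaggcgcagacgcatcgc
Hspb1, chr5:135887779-135887848, plus strand: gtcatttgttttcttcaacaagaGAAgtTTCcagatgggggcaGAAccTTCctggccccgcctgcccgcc
Hspd1, chr1:55088053-55088082, minus strand: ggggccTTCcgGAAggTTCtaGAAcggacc
Hsph1, chr5:149636352-149636381, minus strand: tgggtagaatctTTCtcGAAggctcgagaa

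Hspb1 carried 2 separate pairs, the Hspd1 stretch, from the inner of its 2 windows, held 3 overlapping pairs, and the Hsph1 stretch held 1 of the 3 in its window. The last 2 stretches overlap an annotated first exon of their gene and are shown for 30 bases only. These matches describe the letters of the windows, and occupancy by any factor was not measured.

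Hspa12a lies on chromosome 19 from 58795750 to 58943654 (minus strand), and was the least abundant of the 8 measured members, with a mean of 5.23 CPM over the 24 libraries. In Cre- mice at 30°C the values were 5.35, 6.27, 3.51, 5.47, 4.55 and 7.82 CPM in m1 to m6. In Cre- mice at 8°C they were 2.41, 1.17, 1.73, 1.19, 1.77 and 2.66 CPM. BATdKO mice at 30°C had 11.2, 5.99, 6.20, 8.24, 4.91 and 6.01 CPM. BATdKO mice at 8°C had 9.15, 7.37, 4.63, 4.38, 4.47 and 9.19 CPM. Every Cre- 8°C library was thus below all 18 libraries of the other groups, whose lowest value was 3.51 CPM.

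Ordered by their means, the groups were Cre- 8°C (1.82 ± 0.613 CPM, SD, n = 6), Cre- 30°C (5.50 ± 1.47), BATdKO 8°C (6.53 ± 2.33) and BATdKO 30°C (7.08 ± 2.27). The last 3 overlapped throughout, and the gap between the first and the second was the only one without overlap. The counts behind these values were small, 7 to 21 reads per library in Cre- 8°C mice and 4 to 97 in the others. In the shallowest library 4 reads were counted, with an exact Poisson interval of 1.09 to 10.2 reads at 95%, which covers counting error only. In Cre- 8°C mice counting alone would give a coefficient of variation of 28.7% where 33.6% was observed, and in BATdKO 8°C mice 18.5% where 35.6% was observed.

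**Figure D1:**
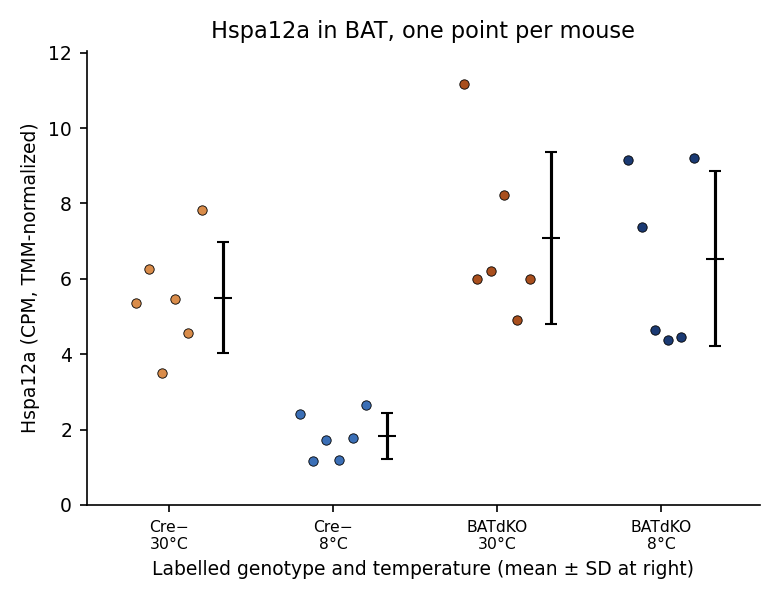
Hspa12a level (CPM, y axis from 0) in each of 24 mice, by labelled genotype and temperature (x axis), with points for mice and bars for the mean ± SD of 6. The 6 Cre- 8°C points lie between 1.17 and 2.66 CPM, under every point of the other 3 groups.

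At 8°C Hspa12a was 3.46-fold higher under the BATdKO label than in Cre- mice (log2 fold change 1.79, standard error 0.27, 95% interval 1.23 to 2.35). From 30°C to 8°C in Cre- mice it changed by a log2 fold change of -1.60 (standard error 0.27), to 0.329 of its level. These 2 contrasts selected the gene and share the Cre- 8°C libraries, so a high value in the first goes with a low value in the second. Groups did not overlap in either, as for 1.95% and 2.93% of all tested genes. In BATdKO mice the log2 fold change in the cold was -0.16 (95% interval -0.63 to 0.31), and between genotypes at 30°C it was 0.35 (-0.12 to 0.82). The difference between the genotype effects at the 2 temperatures was 1.44 (standard error 0.36), described without a test for the same reason.

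Over 32 alternative analyses, which included leaving out each mouse, the log2 fold change between genotypes at 8°C ran from 1.66 to 1.96, and that of cold in Cre- mice from -1.78 to -1.45. That of cold in BATdKO mice ran from -0.30 to -0.003, and that between genotypes at 30°C from 0.18 to 0.54. Without BATdKO 30°C m1 alone these last values were -0.003 and 0.19. Without both m6 libraries at 30°C the 2 selecting contrasts gave 1.78 and -1.46, and without the 2 libraries highest in muscle genes and the shallowest 1.79 and -1.78. Hspa12a shares exon sequence with the microRNA gene Mir3086 on its own strand and with Eno4 on the other, and whether reads were counted by strand is not given in the sources used here. Of 5 listed nerve markers 2 were tested, Mbp and S100b. In the cold in Cre- mice S100b rose by 1.71 on the log2 scale (adjusted p = 0.000313, edgeR) and was lower under the BATdKO label at 8°C (-1.77, adjusted p = 0.00109), the opposite of Hspa12a. Mbp passed in neither (0.05 and -0.40, adjusted p = 0.945 and 0.525). Their summed level was 33.9 to 61.4 CPM in Cre- 8°C mice and 11.2 to 29.3 CPM in the other 18 libraries. Since the 2 markers differed, this sum cannot be read as an amount of nerve, and its part in the result was not tested.

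In the other 7 measured members the highest group mean exceeded the lowest by 1.09 to 1.71-fold, beside 3.89-fold in Hspa12a, which was selected on these levels. Between genotypes at 8°C, 0 of the 7 passed the adjusted threshold of 0.1 in edgeR, where 1.82% of all tested genes did. Hspa8, Hspb1 and Hspd1 (3 genes) had an unadjusted p under 0.05, and DESeq2 called 1 (Hspa8). For unadjusted p and for DESeq2 the share of all tested genes is not given, here or below. Such counts can therefore not be read as more or fewer than among all genes. The log2 fold changes of the 7 members ran from -0.45 to 0.16 with a median of 0.03 (0 over all tested genes), and no 95% interval reached beyond -0.75 or 0.30.

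In the cold in Cre- mice 1 of the 7, Hspb1, passed the threshold, against 9.15% of all tested genes, and it rose where Hspa12a was lower. Hsp90ab1, Hspb1 and Hspd1 had an unadjusted p under 0.05, and DESeq2 also called 1 (Hspb1). The 7 log2 fold changes ran from -0.15 to 0.45 with a median of 0.13 (-0.02 over all tested genes). In the cold in BATdKO mice 0 of 7 passed in edgeR, against 7.07% of all tested genes, with 2 at an unadjusted p under 0.05 (Hspb1 and Hspd1) and 1 called by DESeq2 (Hspd1). Between genotypes at 30°C 0 of 7 passed, as did 0% of all genes, with 1 at an unadjusted p under 0.05 (Hspb1) and 0 by DESeq2. For the interaction 0 of 7 passed, against 0.0961% of all genes, with 0 at an unadjusted p under 0.05 and 0 by DESeq2.

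**Figure D2:**
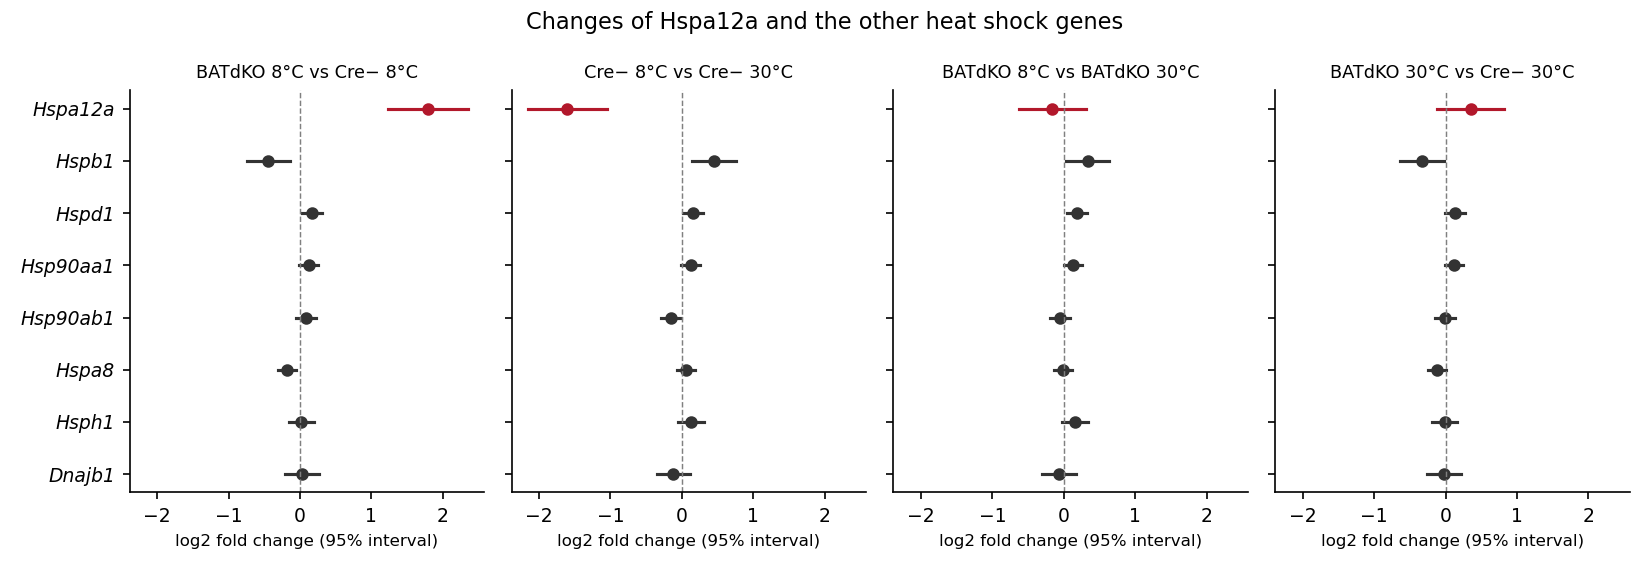
Log2 fold change (x axis) with its 95% interval for the 8 measured members (rows) in 4 comparisons (panels), Hspa12a in red. Hspa12a lies at 1.79 and -1.60 in the first 2 panels, where the other genes lie between -0.45 and 0.45.

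Among the HSP70 proteins and their partners, Hspa8 encodes HSC70, the constitutive cytosolic HSP70, on chromosome 9 from 40800984 to 40810087. Its level was 239 ± 11.4 CPM in Cre- mice at 30°C (SD, n = 6) and 248 ± 15.7 CPM at 8°C. Under the BATdKO label it was 220.0 ± 12.9 CPM at 30°C and 219 ± 13.0 CPM at 8°C. The difference between genotypes at 8°C was -0.18 in log2 (95% interval -0.30 to -0.05), with overlapping ranges of 228 to 265 CPM and 206 to 239.6 CPM. It missed the threshold in edgeR (adjusted p = 0.203) and passed it in DESeq2 (adjusted p = 0.057), and it lies in the direction opposite to Hspa12a. Exons of Hspa8 also hold 3 small nucleolar RNA genes on the same strand.

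Hsph1, the HSP110 exchange factor of HSP70 (chromosome 5, 149614287 to 149636376), averaged 16.5 to 18.4 CPM in the 4 groups. Dnajb1, the stress-inducible HSP40 partner that activates the HSP70 ATPase (chromosome 8, 83608193 to 83612653), averaged 14.0 to 15.3 CPM. Neither had an unadjusted p under 0.05 in any comparison, with 95% intervals between genotypes at 8°C of -0.16 to 0.20 for Hsph1 and -0.21 to 0.27 for Dnajb1. Both were counted at low depth, where counting alone would give a coefficient of variation of 9.11 to 14.4%, and observed values were 6.46 to 21.4%.

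Of the HSP90 genes, Hsp90ab1, the constitutive HSP90 (chromosome 17, 45567775 to 45573271), was the most abundant member with a mean of 1062 CPM over all libraries. It averaged 1104 ± 94.2 CPM in Cre- mice at 30°C and 994 ± 50.8 CPM at 8°C, a log2 fold change of -0.15 (95% interval -0.29 to -0.01, adjusted p = 0.215 in edgeR). Under the BATdKO label it averaged 1093 ± 90.6 CPM and 1056 ± 42.0 CPM at these temperatures. Hsp90aa1, the stress-inducible HSP90 (chromosome 12, 110690605 to 110702728), had log2 fold changes of 0.12 to 0.13 in all 4 comparisons of 2 groups. All 4 intervals included 0. Its group means ran from 323 ± 14.8 CPM in Cre- mice at 30°C to 384 ± 14.1 CPM in BATdKO mice at 8°C. Its BATdKO 30°C library m1 had 418 CPM, the highest of all 24, and the gene passed the threshold for cold in BATdKO mice when that library was left out.

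Hspb1 encodes HSP27, a small heat shock protein that also binds actin, on chromosome 5 from 135887919 to 135889563. In Cre- mice at 30°C its levels in m1 to m6 were 105, 75.1, 138, 69.7, 79.2 and 65.2 CPM. At 8°C they were 119, 83.5, 128, 123, 138 and 145 CPM. BATdKO mice had 58.0 to 84.6 CPM at 30°C (median 68.7) and 77.7 to 101 CPM at 8°C (median 91.6). Ranges overlapped in every comparison, and Cre- mice at 8°C were the highest group, where Hspa12a was at its lowest.

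Hspb1 rose in the cold in Cre- mice by a log2 fold change of 0.45 (95% interval 0.15 to 0.76, adjusted p = 0.0699 in edgeR). In BATdKO mice its log2 fold change in the cold was 0.33 (0.03 to 0.64, adjusted p = 0.235), and the interaction was -0.12 (-0.55 to 0.31). Between genotypes it was -0.45 at 8°C (-0.75 to -0.14, adjusted p = 0.182) and -0.33 at 30°C (-0.64 to -0.02, adjusted p = 0.428). The call for cold in Cre- mice was lost on leaving out any 1 of the Cre- 30°C mice m2, m4, m5 and m6 or of the Cre- 8°C mice m1, m3, m4, m5 and m6, with adjusted p from 0.101 to 0.154. It was also lost without both m6 libraries at 30°C (0.36, adjusted p = 0.123).

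The 2 Cre- 30°C libraries with the most Hspb1, m3 and m1, were also the 2 with the highest summed muscle genes. Without them and the shallowest library the change in the cold in Cre- mice was 0.75 (adjusted p = 0.00169, edgeR), and the difference between genotypes at 8°C passed the threshold at -0.45 (adjusted p = 0.0361). Leaving out the 2 highest Hspb1 values of the Cre- 30°C group raises the change in the cold by itself, so the value of 0.75 is no separate result. The difference between genotypes at 8°C also passed without Cre- 30°C m3 alone and without Cre- 8°C m2 alone. Summed muscle genes were 18.4 to 1633 CPM in Cre- 8°C mice and 8.02 to 172 CPM in BATdKO 8°C mice, and their part in the Hspb1 difference between genotypes was not tested.

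Hspd1 encodes HSP60, which folds imported proteins in the mitochondrial matrix, on chromosome 1 from 55077835 to 55088243. In BATdKO mice its 30°C levels in m1 to m6 were 415, 377, 415, 398, 384 and 369.5 CPM. Its 8°C levels were 512, 436, 422, 440.4, 442 and 440.2 CPM. All 6 libraries at 8°C lay above all 6 at 30°C, a separation that 2.99% of all tested genes showed. The log2 fold change was 0.19 (95% interval 0.05 to 0.33), which missed the threshold in edgeR (adjusted p = 0.119) and passed it in DESeq2 (adjusted p = 0.071). In Cre- mice the corresponding value was 0.16 (0.02 to 0.30, adjusted p = 0.193 in edgeR), with overlapping ranges, and it passed without Cre- 30°C m6 alone or without both m6 libraries (0.20, adjusted p = 0.0691). Without the 2 libraries highest in muscle genes and the shallowest it was 0.07 (adjusted p = 0.743). The first exons of Hspd1 and of Hspe1, its HSP10 partner on the opposite strand, overlap.

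**Figure D3:**
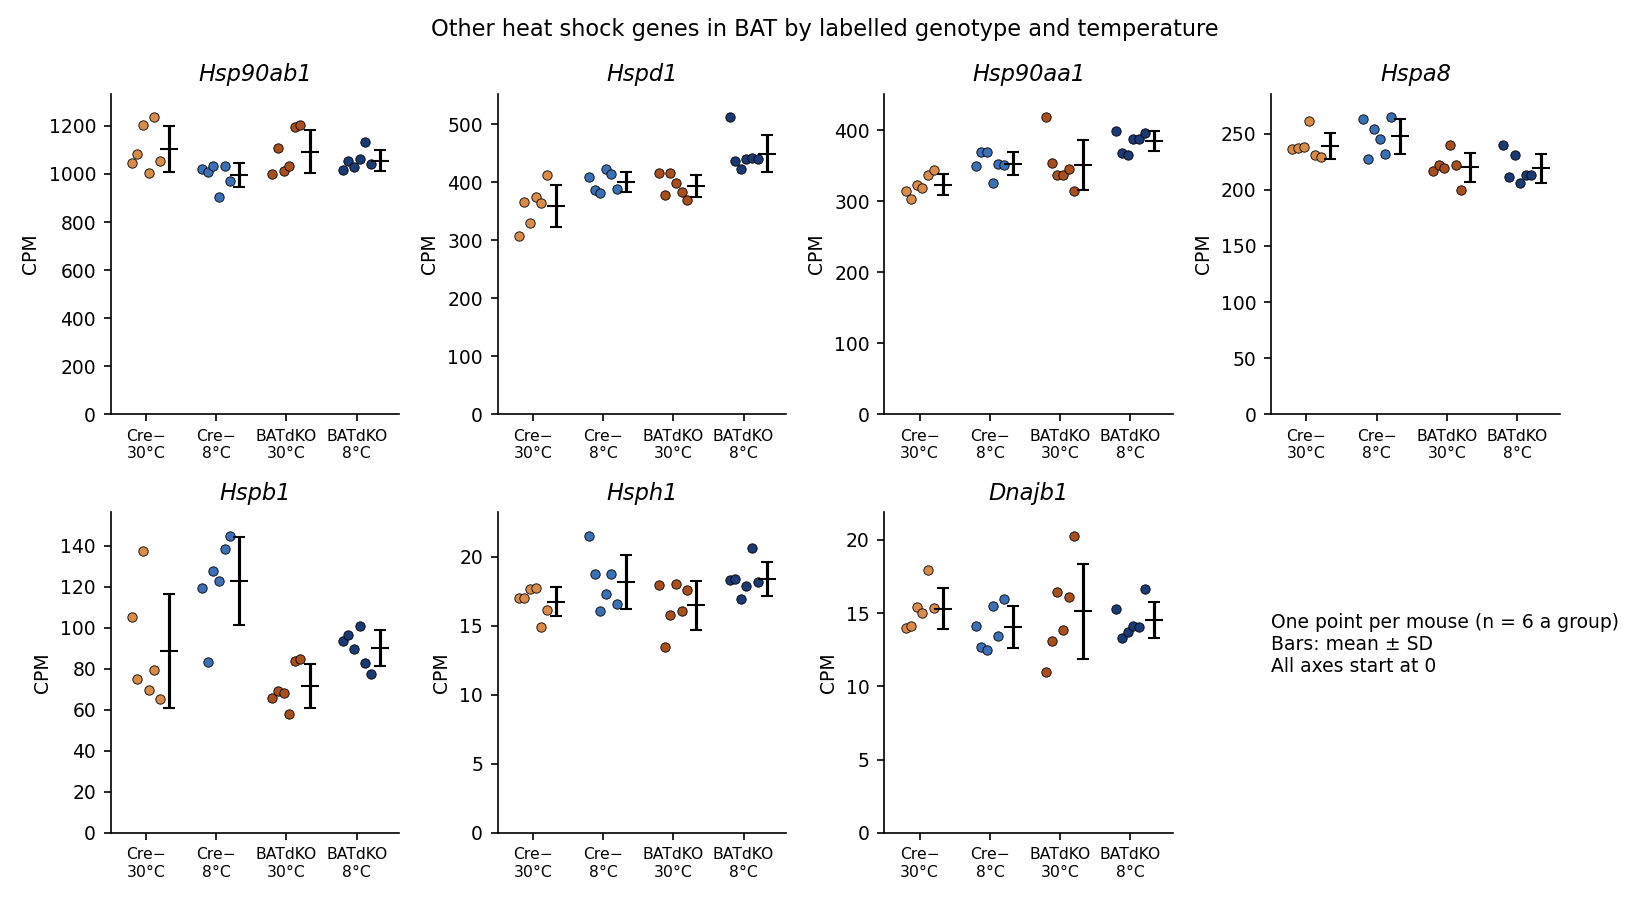
Level (CPM, y axes from 0) of the 7 other measured members in each of 24 mice by labelled genotype and temperature, with bars for the mean ± SD of 6. Group means differ by 1.09 to 1.71-fold within a gene, the most in Hspb1.

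The wider chaperone network was described through 8 lists with 87 genes beside the members, of which 70 were tested. Between genotypes at 8°C 0 of 70 passed in edgeR (5 at an unadjusted p under 0.05, 1 in DESeq2), and their median log2 fold change was -0.01. In the cold 5 of 70 passed in Cre- mice (4 higher, 1 lower), against 9.15% of all tested genes, with 14 at an unadjusted p under 0.05 and 7 in DESeq2. The percentages of all genes in this paragraph are for the adjusted p in edgeR only. In BATdKO mice 4 of 70 passed (2 higher, 2 lower), against 7.07%, with 15 at an unadjusted p under 0.05 and 4 in DESeq2. At 30°C and for the interaction 0 passed in edgeR, with 12 and 3 at an unadjusted p under 0.05 and 2 and 1 in DESeq2. Without both m6 libraries 8 of them passed between genotypes at 30°C, where 4% of all genes then did. These were Cryab, Dnajb6, Dnajc15, Fkbp4, Grpel1, Hspa9, Hspb6 and St13. The m6 libraries were left out for their levels in these data, which can itself raise the number of calls. Cre- m6 had the most Hspa9, Grpel1 and Dnajc15 of its group at 30°C (230.4, 69.0 and 68.5 CPM). With all libraries the values of Hspa9, Grpel1 and Dnajc15 at 30°C were 0.24, 0.255 and 0.32 (adjusted p = 0.453, 0.435 and 0.375, edgeR). Those of Cryab and Hspb6 were -2.095 and -1.74 (adjusted p = 0.149 and 0.168, edgeR). Cre- 30°C mice m1 and m3, highest in muscle genes, had 95.1 and 166 CPM of Hspb6 and 66.5 and 90.8 CPM of Cryab. The other Cre- 30°C mice had 10.9 to 21.25 CPM of Hspb6 and 6.18 to 12.3 CPM of Cryab. BATdKO 30°C mice had 10.9 to 24.9 and 2.25 to 13.6 CPM. The part of muscle in these differences was not tested.

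Of the genes higher in the cold, Hspa9 encodes mortalin, the mitochondrial HSP70 that drives protein import. It averaged 184 ± 32.8 CPM at 30°C and 271 ± 25.6 CPM at 8°C in Cre- mice, and 217 ± 26.3 and 280.2 ± 43.7 CPM in BATdKO mice. In Cre- mice Hspa9 did not overlap (134 to 230.4 CPM, the latter in m6, against 233 to 306 CPM), as for 2.93% of all tested genes. Its log2 fold changes were 0.56 in Cre- mice (adjusted p = 0.00213, edgeR) and 0.36 in BATdKO mice (adjusted p = 0.0625). The first call held on leaving out each mouse in turn. Grpel1, the exchange factor of mortalin, and Dnajc15, a J protein of the inner mitochondrial membrane, rose in Cre- mice by 0.39 and 0.43 (adjusted p = 0.0411 and 0.0523, edgeR). Without the 2 libraries highest in muscle genes and the shallowest they were 0.28 and 0.30, and both calls were lost (adjusted p = 0.293 and 0.32). The Grpel1 call was also lost without Cre- 30°C m3 (adjusted p = 0.123), and that of Dnajc15 without Cre- 30°C m3 or m5 or Cre- 8°C m3 or m4 (adjusted p up to 0.147). Clpx, a mitochondrial unfoldase named because it completes the 5 calls, had a log2 fold change of 0.29 (adjusted p = 0.0938). Leaving out each mouse in turn removed this call in 18 of 24 cases (adjusted p up to 0.282), as did leaving out the 2 libraries highest in muscle genes and the shallowest (0.26, adjusted p = 0.249).

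In BATdKO mice Hspa4, a cytosolic HSP110-type exchange factor, rose in the cold by 0.24 (adjusted p = 0.0577, edgeR). Bag1, an exchange factor that links HSP70 to the proteasome, fell by 0.29 (adjusted p = 0.0349), and Clpb, a mitochondrial disaggregase, fell by 0.26 (adjusted p = 0.0827). The Bag1 call held on leaving out each mouse. Those of Hspa9, Hspa4 and Clpb in BATdKO mice were each lost in 6 of 24 such fits, with adjusted p up to 0.166, 0.159 and 0.173, and also without both m6 libraries (0.104, 0.11 and 0.167). The mice concerned were m2, m5 and m6 at 30°C for all 3 genes, and at 8°C m1, m2 and m4 for Hspa9, m1, m4 and m6 for Hspa4, and m3, m4 and m6 for Clpb. For Bag1 the interaction was -0.48 (95% interval -0.72 to -0.25), with adjusted p = 0.122 in edgeR and 0.026 in DESeq2.

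Cryab, a small heat shock protein abundant in muscle, fell in the cold in Cre- mice by 1.59 on the log2 scale (adjusted p = 0.0677, edgeR). Its Cre- 30°C levels were 66.5 and 90.8 CPM in m1 and m3, the libraries with the most muscle transcripts, and 6.18 to 12.3 CPM in the other 4. Without these and the shallowest library the value turned to 0.64 (adjusted p = 0.456). The call was also lost without Cre- 30°C m1 or m3 or Cre- 8°C m1, m2, m3 or m4 alone (adjusted p up to 0.326, with -0.96 without Cre- 30°C m3). Exons of Cryab overlap those of Hspb2 on the other strand.

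**Figure D4:**
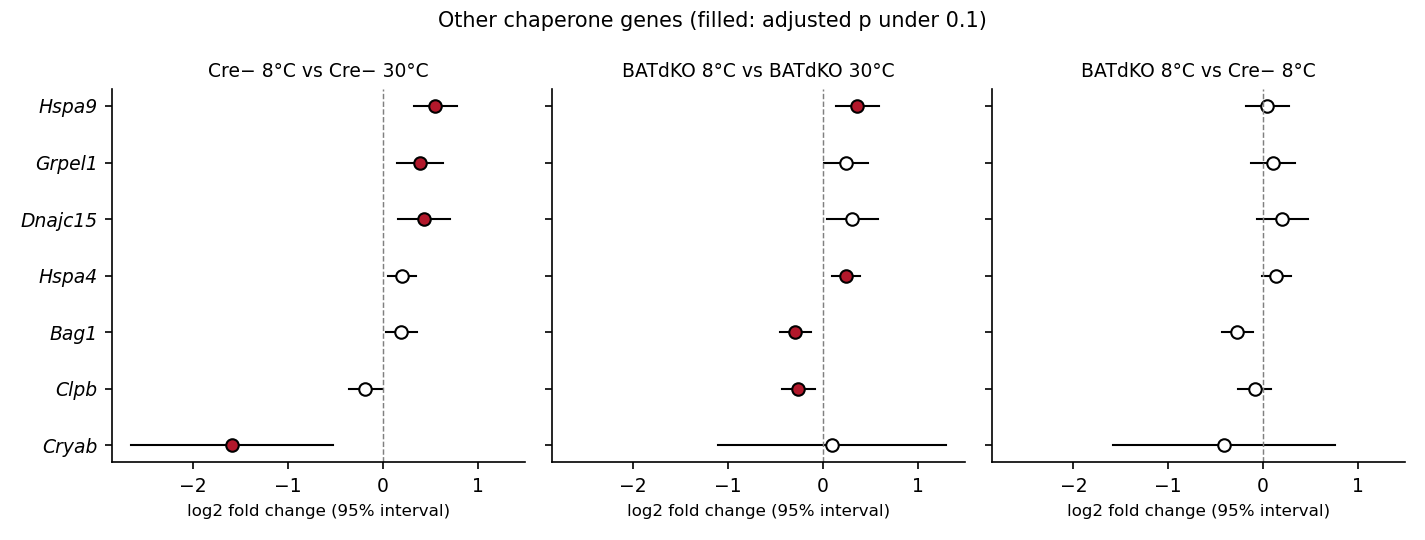
Log2 fold change (x axis) with its 95% interval of 7 other chaperone genes (rows) in 3 comparisons (panels), filled where the adjusted p was under 0.1. The genes were named for passing the threshold in a comparison, and 0 of 70 passed between genotypes at 8°C. Filled points thus stand only in the panels of cold by selection. The wide interval of Cryab in Cre- mice is that of a gene with 6.18 to 90.8 CPM in its 30°C group.

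Of the heat shock transcription factors and their regulators, 4 of 7 were tested, and 0 passed in any comparison in edgeR, with 0 at an unadjusted p under 0.05 and 0 in DESeq2. Hsf1, the main activator of heat shock genes, had log2 fold changes of 0.24 between genotypes at 8°C (95% interval -0.29 to 0.77) and -0.18 in the cold in Cre- mice (-0.70 to 0.33). With all 24 libraries, the 8 tested subunits of the CCT chaperonin, which folds actin and tubulin, also gave 0 calls in edgeR and DESeq2. The same held for the 13 tested HSP90 co-chaperones. At most 1 and 2 genes of these lists had an unadjusted p under 0.05 in a comparison. The cold-inducible RNA-binding genes Rbm3 and Cirbp gave 0 calls by either tool (1 at an unadjusted p under 0.05, Cirbp in the cold in BATdKO mice), with log2 fold changes in the cold in Cre- mice of -0.07 (-0.37 to 0.23) and -0.15 (-0.38 to 0.08). Among 8 tested immediate early genes, which respond within minutes to stress or handling, Jun fell and Dusp1 and Ier3 rose in the cold in both genotypes (3 of 8 in each, against 9.15% of all tested genes in Cre- and 7.07% in BATdKO mice), with 0 calls between genotypes at 8°C in edgeR (2 at an unadjusted p under 0.05, 1 in DESeq2).

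The genes whose log2 CPM was most like that of Hspa12a over the 24 libraries were Svep1 (Pearson r = 0.893), Rgs2 (0.866), Ivns1abp (0.853), Ndn (0.852) and Tnfaip8 (0.839), ranked among 12484 genes. These values are a description, since all points share the libraries and the 4 groups. Svep1, a large matrix protein, had 0.576 to 1.93 CPM in Cre- 8°C mice and at least 3.04 CPM in the other libraries. Rgs2, a brake on G protein signalling, averaged 35.9 ± 5.99 CPM in Cre- 8°C mice and 95.3 ± 20.5 to 140 ± 18.7 CPM in the other groups. Ndn and Tnfaip8 were likewise lowest on average in Cre- 8°C mice, at 5.78 ± 1.54 and 9.24 ± 1.36 CPM.

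After the group means were subtracted, other genes stood first, namely Slc5a3 (r = 0.864), Tubb6 (0.756), Slmap (0.742), Selenof (0.737) and Rgcc (0.733). Slc5a3, the myo-inositol transporter, ranked 375 by the first measure. No heat shock member was near either top. Over the 24 libraries r with Hspa12a ran from -0.681 for Hspb1 (rank 12447 of 12484) to 0.254 for Hsp90ab1 (rank 1574). After the group means were subtracted it ran from -0.434 for Hsp90ab1 to 0.445 for Hspd1 (rank 1010), with -0.258 for Hspb1.

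**Figure D5:**
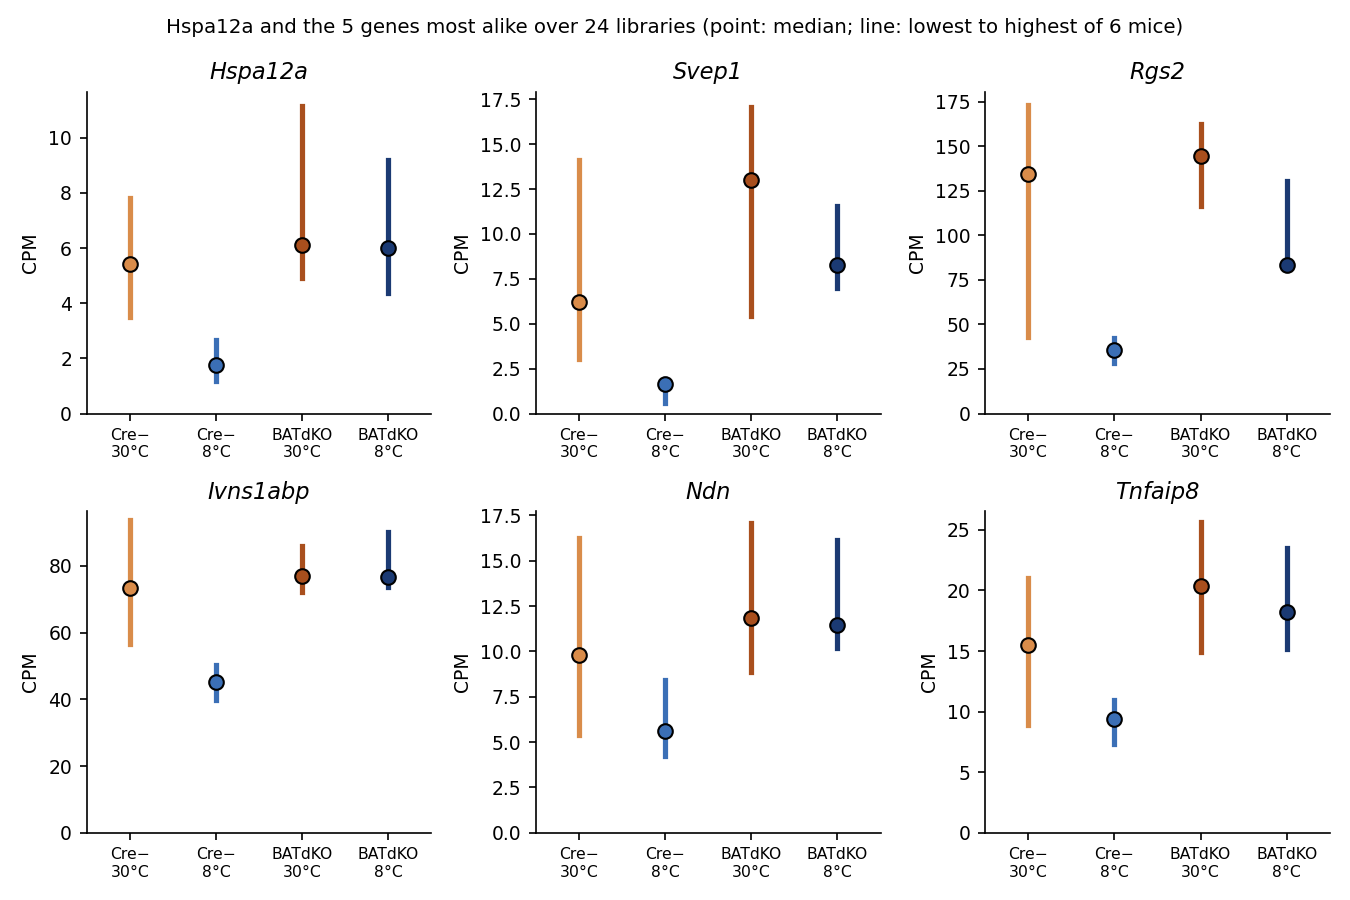
Median (points) and lowest to highest value of 6 mice (lines) in CPM (y axes from 0) for Hspa12a and the 5 genes most like it, by labelled genotype and temperature. In each panel the Cre- 8°C group has the lowest median, 1.75 CPM for Hspa12a and 1.63 CPM for Svep1.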

How the data were processed

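BAT RNA of 24 mice was sequenced as QuantSeq 3′ tags. After trimming and STAR alignment to GRCm38, the authors obtained gene totals with Rsubread, and the deposited values are these unnormalized counts. Columns were matched to samples by the library name in each sample's description, and groups taken from the genotype and treatment labels.

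The tests used edgeR 4.0.16 (limma 3.58.1, R 4.3.3). After TMM normalization and filterByExpr (12485 genes kept, 130 removed), 1 quasi-likelihood model with 4 group means was fitted to all 24 libraries. P-values were adjusted by Benjamini-Hochberg over all tested genes, with a threshold of 0.1. Standard errors are the absolute log2 fold change over the square root of F. Steps were tested on simulated data. Of the rows, 12608 matched a symbol. Positions and exon overlaps are from GENCODE vM21, and promoters from RefSeq (GRCm38.p6).

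The members and gene lists were chosen with earlier results of these data known. Named genes are all members, genes of the chaperone lists past the threshold (at most 3 of smallest p per direction and comparison), the 5 genes most like Hspa12a by each measure, Tbl1xr1, Tbl1x and Ucp1. Clpx, Dnajb6, Fkbp4, Hspb6, St13, Hsf1, Rbm3, Cirbp, the immediate early genes and the cell type markers were named outside that rule, after their values were seen. Alternatives were DESeq2 1.42.0, RLE normalization, other filters, robust dispersion, only the groups compared, leaving out each mouse and, added after the data were seen, leaving out 2 sets of doubtful libraries. The p-values set each difference between groups against the spread between mice, which the main model estimated from all 4 groups together. Some markers of the nerve list are not reported here.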

Additional observations from a re-analysis of the deposited data

Results flagged for a closer look

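Within a group of 6 mice, a value was marked where its gap to the nearest other mouse was over 0.625 of the group's range (Dixon's test), which chance alone meets in about 1 in 20 groups. Of 80 groups examined over the members and named genes, 10 were marked. Among the members these were Hspa8 in the shallowest library, Cre- 30°C m4 (261 CPM, next 238), Hsp90aa1 in BATdKO 30°C m1 (418 CPM, next 354), Dnajb1 in Cre- 30°C m5 (17.9 CPM, next 15.4) and Hspd1 in BATdKO 8°C m1 (512 CPM, next 442). No Hspa12a value was marked. Among the other genes, Cre- 8°C m2 was the lowest for Grpel1 (56.5 CPM), Dnajc15 (47.2 CPM) and Bag1 (47.5 CPM). At 30°C the library labelled Cre- m6 was the highest of its group for Tbl1xr1 (38.6 CPM) and Ucp1 (548 CPM), and the library labelled BATdKO m6 the lowest of its group for Tbl1x (39.7 CPM).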

How the results depend on the processing

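The number of the 7 other members past the threshold changed with the analysis. Between genotypes at 8°C it was 1 with DESeq2, with only the 2 groups compared and without the 3 libraries (highest 2 in muscle genes and shallowest), against 0. In the cold in Cre- mice it was 0 with only the 2 groups, against 1. In the cold in BATdKO mice it was 1 with DESeq2, 1 with only the 2 groups and 2 without the 3 libraries, against 0. Leaving out each mouse gave 0 to 1 in these comparisons and 0 between genotypes at 30°C and for the interaction. Of the 70 other chaperone genes, calls between genotypes at 8°C were 1 with DESeq2, 3 with only the 2 groups, 2 without the 3 libraries and 1 without both m6, against 0. In the cold in Cre- mice they were 2, 2 and 9 in the last 3 settings, against 5, and in BATdKO mice 1 without both m6, against 4. At 30°C they were 2 with DESeq2 and 8 without both m6, and for the interaction 1 in each, against 0. Leaving out each mouse gave 0 to 1, 1 to 9, 1 to 5, 0 to 5 and 0 to 1 in the comparisons as ordered here. Calls over all tested genes moved too. Without the 3 libraries 2.78% passed between genotypes at 8°C, 5.14% in the cold in Cre- mice and 8.49% in BATdKO mice. Without both m6 these shares were 2.59%, 13.2% and 6.13%, with 4% at 30°C and 0.352% for the interaction. For the other settings the share over all genes is not given here.

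Signs turned for values near 0 on leaving out a mouse, in Hsph1 (-0.016 to 0.073) and Dnajb1 (-0.011 to 0.078) between genotypes at 8°C and in Hspa8 (-0.04 to 0.017) and Dnajb1 (-0.135 to 0.033) in the cold in BATdKO mice. The last was also 0.033 without both m6, and Cryab in the cold in Cre- mice was 0.64 without the 3 libraries. The cause was not tested. Counts of 4 to 97 reads limit Hspa12a. No paired analysis was possible because mouse numbers pair no mice between groups. Summing Hspa1a and Hspa1b was not run, since neither was analysed here.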
